A study of Solanum lycopersicum with 36 samples.

Results

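Tomato leaves harvested 4 h into the dark were compared with leaves harvested at the start of the dark, so the comparison covers the first 4 h of the night. Its members were the 6 mRNA libraries of the groups labelled Dark-4h and Dark-0h, 3 replicates each, out of 36 libraries in the series, and all genes that could be tested. All plants were Solanum lycopersicum, written HeinZ 1706 in the labels. They were 4 weeks old and grew at 25 °C with 12 h of light and 12 h of dark, and the labels give no further treatment or genotype. The mRNA libraries were made from polyadenylated leaf RNA. The other mRNA groups were Light 0 h, Light 4 h, Light 8 h and Dark 8 h. A second assay at the same 6 times, GMUCT, read the 5' ends of transcripts that had lost their cap or been cut, called uncapped RNA here. The hour in a label was read as time since the light or the dark began. Whether the replicates are separate plants is not stated in the labels. Their spread, on which every p-value rests, may thus be technical.

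At nightfall photosynthesis stops, and a leaf turns from making sugar and starch to living on the starch stored by day. The plant's circadian clock runs through the same hours, with some of its genes active around dusk and others late at night or at dawn. Loss of light and the hour of the clock fall together in this design and cannot be told apart. The files give genes as tomato Solyc identifiers. The gene table of 41476 RefSeq genes held 0 of the 34075 identifiers, so no gene is given a name or a role here. Gene lists, marker genes of leaf and other tissues, and sequences were not analysed here for the same reason. Gene groups are instead described by the direction and size of the change, by the time of day of the highest mRNA, by neighbourhood and by their uncapped RNA.

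Reads counted in genes ranged from 6632784 to 20846641 in the Dark 4 h libraries and from 14867053 to 27126312 in the Dark 0 h libraries. The shallowest was replicate 1 of Dark 4 h. Libraries of a group correlated at r of at least 0.95 (Dark 4 h) and 0.961 (Dark 0 h) in log2 CPM, and the highest r between the groups was 0.941. CPM is the read count of a gene relative to its library's scaled total, with no correction for length. The 10 most abundant genes took 4.43 to 5.58% of the reads at Dark 4 h and 5.9 to 8.03% at Dark 0 h. Reads that fell on more than 1 gene made up 0.289 to 0.414% at Dark 4 h and 0.38 to 0.446% at Dark 0 h. Reads without a unique alignment, counted in no gene, made up 2.54 to 2.95% at Dark 4 h and 2.54 to 3.14% at Dark 0 h. The part of these shares in the results was not tested. The Dark 0 h mRNA group stood apart from uncapped RNA of its own time. Over 9880 genes with at least 10 CPM in both assays, deviations from the day's mean correlated between assays at r = -0.05 at Dark 0 h, against r = 0.67 to 0.77 at the other times. Whether the Dark 0 h libraries of mRNA, or those of uncapped RNA, carry the right label could not be settled from the files. Every difference between Dark 4 h and Dark 0 h, and every statement on a high or low at Dark 0 h, rests on these labels. So does every comparison of the assays over this step. As Dark 0 h is an arm of the comparison, no value without that group can be given.

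A large part of the measured leaf transcriptome differed after 4 h of darkness. Of 19711 genes tested, 2475 (12.6%) were higher and 2189 (11.1%) lower at Dark 4 h than at Dark 0 h at an adjusted p under 0.05 (edgeR quasi-likelihood test), 23.7% together. The median log2 change over all genes tested was 0.03. The scaling of the libraries holds this median close to no change, so a shift in total mRNA cannot be read from it. In whole leaves, fewer cells of a type and less RNA per cell cannot be told apart. Most changes were small: 1364 of the higher genes and 1125 of the lower genes changed by less than 2-fold. The strongest changes leaned towards loss. At least 4-fold changes were seen in 265 of the higher genes (10.7%) and in 371 of the lower genes (16.9%), and at least 16-fold changes in 37 and 63. The middle change was 0.95 on the log2 scale among the higher genes, with quartiles of 0.69 and 1.37. Among the lower genes it was -0.98, with quartiles of -1.58 and -0.69. The 3 libraries of each group did not overlap in 2257 of the 2475 higher genes (91.2%) and in 2077 of the 2189 lower genes (94.9%). Among all genes tested, Dark 4 h lay wholly above in 18.7% and wholly below in 17.1%. Fitted on the 6 libraries alone, the test called 1400 higher and 1468 lower genes.

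The genes called took a large share of the reads. Those higher at Dark 4 h held 19.96, 20.04 and 19.77% of the reads of the Dark 4 h libraries, against 9.34, 10.9 and 9.43% of those of Dark 0 h. Those lower at Dark 4 h held 11.7, 12.0 and 11.8% at Dark 4 h, against 24.6, 22.6 and 25.7% at Dark 0 h. The direction of these shares follows from the choice of genes. The shares were nearly alike among the libraries of Dark 4 h, the shallow replicate 1 included.

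**Figure D1:**
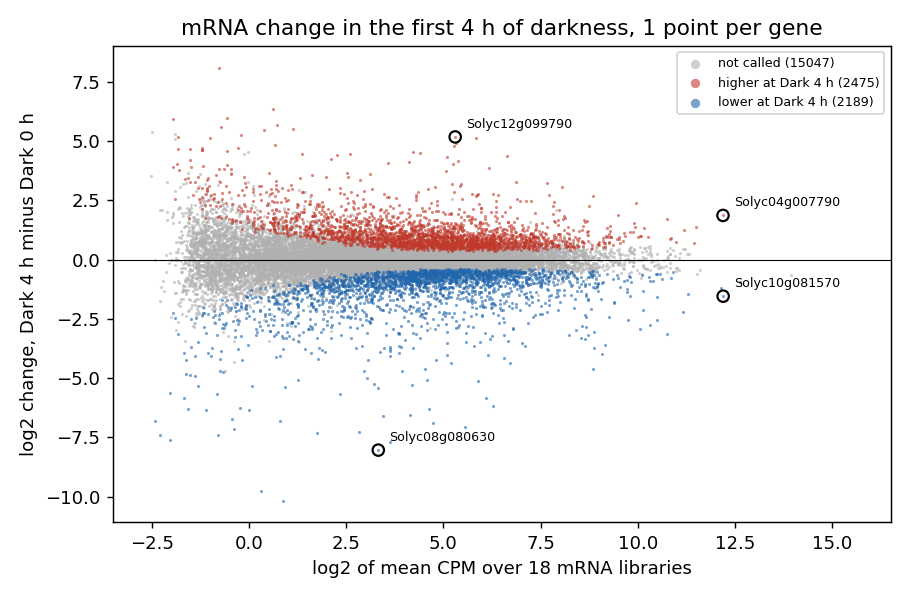
Each point is a gene, placed by the log2 of its mean CPM over the 18 mRNA libraries (x) and by its log2 change in mRNA, Dark 4 h minus Dark 0 h (y). Red marks the 2475 genes higher at Dark 4 h, blue the 2189 lower genes and grey the genes not called, and the 4 circled genes are described by library. The grey cloud widens to the left, where reads are few.

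The share of genes called differed with their read level. Among the 2088 genes with a mean under 1 CPM over the day, 4.55% were higher and 4.21% lower. Among the 8719 genes of 10 to 100 CPM the shares were 16.1% and 13.9%, and among the 1980 genes of 100 to 1000 CPM 17.8% and 15.5%. The median size of a called change was 2.74 on the log2 scale in the weakest class and 0.83 in the class of 100 to 1000 CPM, so weak genes were called for large changes. In the class of 1000 CPM or more, 13 of 103 genes were higher and 22 were lower. CPM classes mix abundance with transcript length, which was not used.

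Genes were picked for description by size of change in each direction, among 1702 higher and 1613 lower genes that met the conditions on level and overlap. In Solyc12g099790, the higher gene with the largest log2 change among these, mRNA was 215, 150.2 and 86.4 CPM in the Dark 4 h libraries, against 3.77, 3.47 and 5.32 CPM at Dark 0 h. The groups were far apart, although the Dark 4 h libraries differed among themselves. The log2 change was 5.18 ± 0.46 (SE; adjusted p = 3.86e-07). This was a brief maximum, since at Dark 8 h the mRNA was 6.87 ± 3.29 CPM (SD, n = 3). A smaller maximum stood at Light 8 h, with 46.7 ± 17.5 CPM, and Light 4 h was low, with 5.44 ± 2.42 CPM. Its uncapped RNA was 21.7, 136 and 80.5 CPM at Dark 4 h and 84.9, 28.0 and 17.9 CPM at Dark 0 h. These groups overlapped (log2 change 0.87, SE 0.63, adjusted p = 0.328).

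Solyc04g007790 had the largest rise in mean CPM among these genes. Its mRNA was 7844, 3628 and 3471 CPM at Dark 4 h, against 1755, 1234 and 1114 CPM at Dark 0 h. Its log2 change was 1.86 ± 0.30 (SE; adjusted p = 0.00024). Replicate 1 of Dark 4 h stood well above the other 2, and without it the log2 change was 1.36 (adjusted p = 0.00119). Dark 4 h was not this gene's maximum. It reached 11262 ± 972 CPM at Light 8 h and was low at Light 0 h and Dark 8 h, with 1945 ± 349 and 1205 ± 374 CPM (SD, n = 3). If the Dark 0 h mRNA label is right, the gene dipped there between Light 8 h and Dark 4 h. Uncapped RNA of the gene went the opposite way: it was 646, 491 and 929 CPM at Dark 4 h, against 2004, 2246 and 3087 CPM at Dark 0 h. Those groups did not overlap (log2 change -1.83, SE 0.34, adjusted p = 0.00129). That the assays moved in opposite directions depends on the Dark 0 h labels of both assays marking the same time.

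Solyc08g080630, the lower gene with the largest log2 change among these, was almost silent at Dark 4 h. It had 0, 5 and 4 reads there, or 0, 0.288 and 0.177 CPM, against 30.7, 44.2 and 82.0 CPM at Dark 0 h. The log2 change was -8.04 ± 0.61 (SE; adjusted p = 6.82e-08), and its size depends on those few reads. The gene was also low at every other time, between 0.222 ± 0.124 CPM at Light 8 h and 3.31 ± 2.36 CPM at Dark 8 h (SD, n = 3). Dark 0 h thus held a single sharp maximum. Uncapped RNA was near its floor, with 11, 3 and 4 reads at Dark 4 h and 1, 1 and 0 reads at Dark 0 h, and its change was not called (adjusted p = 0.172).

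Solyc10g081570 had the largest fall in mean CPM among these genes. Its mRNA was 6161, 3859.9 and 1605 CPM at Dark 4 h, against 12728, 7139.9 and 14007 CPM at Dark 0 h. The groups came within 1000 CPM of each other, and the spread was wide within both. The log2 change was -1.54 ± 0.36 (SE; adjusted p = 0.00494), and in a fit of the 6 libraries alone it was -1.55 with an adjusted p of 0.0545. Without replicate 1 of Dark 4 h it was -2.06. The mRNA had been high since Light 8 h, with 7365 ± 734 CPM, and it was 2265 ± 129 CPM at Dark 8 h (SD, n = 3). Uncapped RNA was low in both groups, which overlapped, at 13.1, 17.1 and 10.6 CPM at Dark 4 h and 17.5, 14.6 and 14.1 CPM at Dark 0 h. Its log2 change there was -0.18 (SE 0.19, adjusted p = 0.514). Whether any of these 4 genes shares reads with a near-identical copy, or lost them as not unique, could not be checked.

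**Figure D2:**
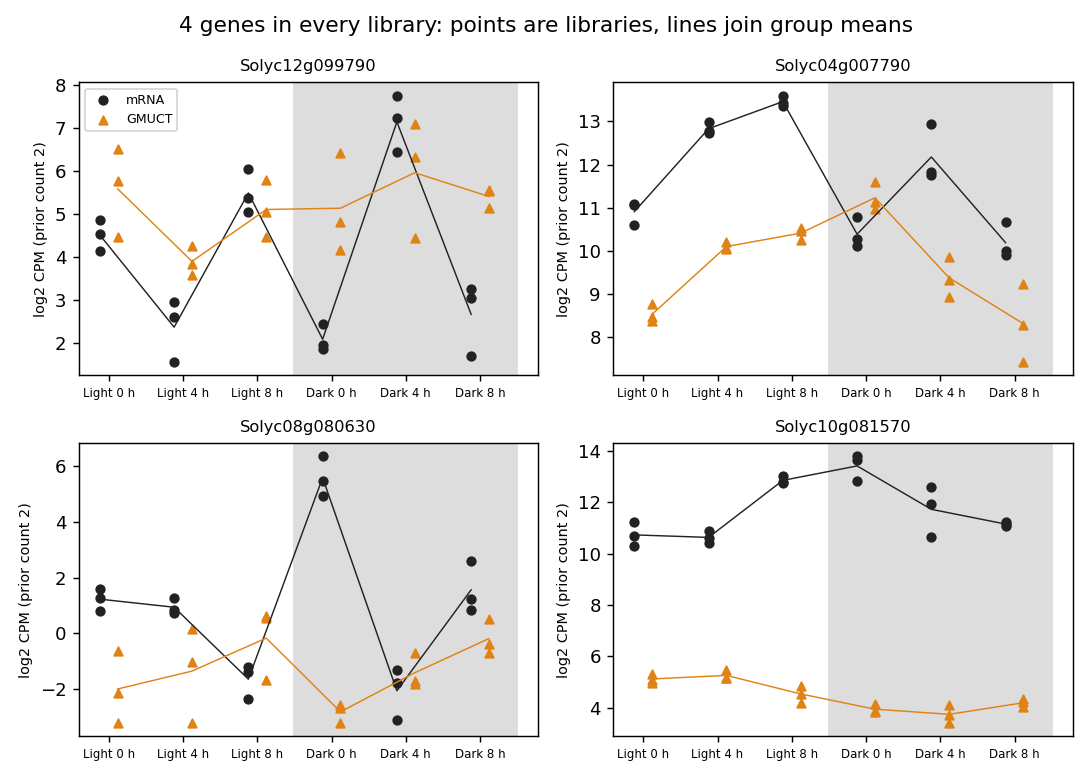
Each panel shows a gene in all 36 libraries at the 6 times (x), as log2 CPM with a prior count of 2 (y); black circles are mRNA, orange triangles GMUCT, lines join group means and grey marks the dark. The mRNA of Solyc12g099790 stands highest at Dark 4 h, that of Solyc08g080630 at Dark 0 h, and uncapped RNA of Solyc04g007790 is highest at the label Dark 0 h, where its mRNA is below Light 8 h and Dark 4 h.

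Dark 0 h was an extreme of the whole day for many of the genes called, which were chosen by their Dark 0 h level. Dark 0 h was the lowest of the 6 times for 1352 of the 2475 higher genes (54.6%), against 18.4% of all genes tested. It was the highest time for 1301 of the 2189 lower genes (59.4%), against 17.9% of all genes tested. Part of this follows from the choice of genes, which was by Dark 4 h and Dark 0 h. A gene higher at Dark 4 h cannot be lowest there, and a gene lower at Dark 4 h cannot be highest there. The shares over all genes tested carry no such choice, so the sets are not alike. The size of this part was not tested. The levels at the other 4 times were not compared in the call. Their libraries did enter the filter on low counts, the scaling and the estimate of spread. In sets sorted by the time of their highest mRNA, however, that time is above all others by choice. Highest and lowest here mean the group means, which were not tested against the next.

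Among the higher genes several day courses were mixed. Dark 4 h itself was the highest time for 764 (30.9%), Light 8 h for 610 (24.6%), Light 0 h for 578 (23.4%), Light 4 h for 356 (14.4%) and Dark 8 h for 167 (6.75%). Among all genes tested, the shares highest at these times were 11.9, 20.9, 17.3, 20 and 12%, in the same order. The 610 genes highest at Light 8 h had a median of 0.97 above their own day mean at that time (log2), with -0.77 for Dark 0 h and 0.22 for Dark 4 h. That Dark 4 h lay between the other 2 times follows from how these genes were chosen. The 578 genes highest at Light 0 h had a median of -0.53 for Dark 0 h and 0.28 for Dark 4 h. It was 0.34 for Dark 8 h and 0.67 for Light 0 h. The rise from Dark 0 h to Dark 4 h and the maximum at Light 0 h follow from the choice of genes. Dark 4 h and Dark 8 h had overlapping quartiles, 0.16 to 0.42 and 0.14 to 0.57. The 764 genes highest at Dark 4 h stood at 0.74 there and at 0.10 by Dark 8 h, a fall whose direction follows from the choice.

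Lower genes can be highest at Dark 0 h and higher genes cannot, so these counts are not alike by choice. After the 1301 genes highest at Dark 0 h, the next group was highest at Light 4 h, with 478 genes (21.8%), and 174 (7.95%) were highest at Light 8 h. Among all genes tested, 20% were highest at Light 4 h and 20.9% at Light 8 h. The lower genes had their lowest mean at Dark 4 h in 834 cases (38.1%), at Light 8 h in 493 (22.5%), at Light 4 h in 381 (17.4%), at Light 0 h in 344 (15.7%) and at Dark 8 h in 137 (6.26%). Among all genes tested, the shares lowest at these times were 14.1, 20, 20.9, 15.4 and 11.2%, in the same order. The 1301 genes stood at a median of 0.84 above their day mean at Dark 0 h, with medians between -0.25 and 0.05 at the other 5 times. That the other times lay below Dark 0 h follows from the choice of these genes. Their median at Light 8 h, the sample before Dark 0 h, was -0.25. The 478 genes highest at Light 4 h had medians of 0.93 for Light 4 h, 0.31 for Light 8 h, 0.19 for Dark 0 h, -0.82 for Dark 4 h, -0.39 for Dark 8 h and -0.20 for Light 0 h.

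**Figure D3:**
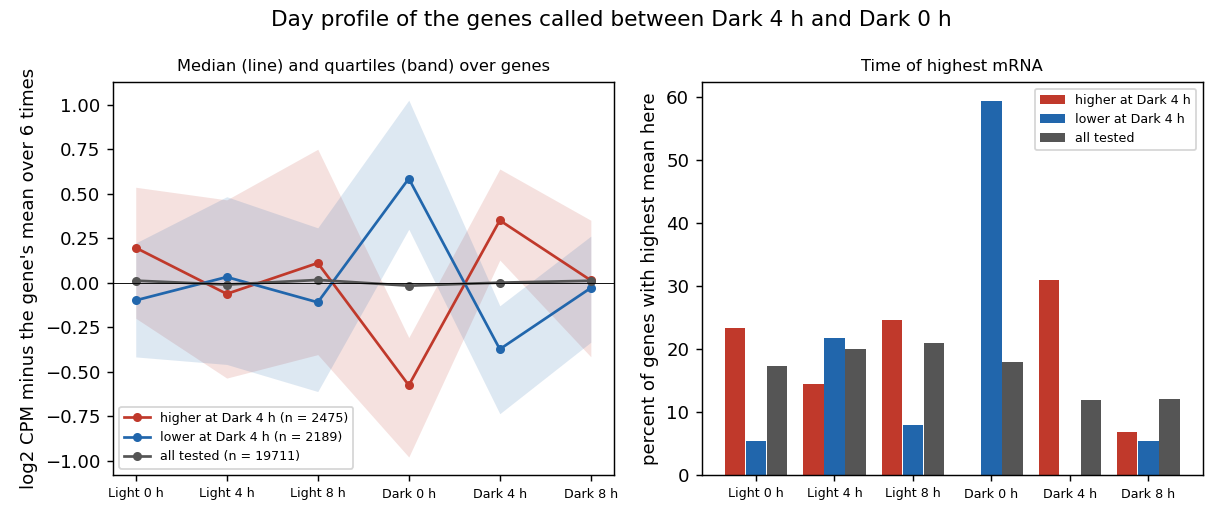
Left, the median (line) and quartiles (band) over genes of log2 CPM minus the gene's own mean (y) at the 6 times (x), for genes higher at Dark 4 h (red), lower at Dark 4 h (blue) and all genes tested (grey). Right, the percent of each set whose highest mean fell at each time: 59.4% of the lower genes peak at Dark 0 h and 30.9% of the higher genes at Dark 4 h. Among all genes tested, 17.9% peak at Dark 0 h and 11.9% at Dark 4 h.

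The genes called were also examined between late night and late day. Dark 8 h against Light 8 h shares no library with the Dark 4 h and Dark 0 h groups, and in it 24.5% of all genes tested were higher and 25.5% lower at Dark 8 h, 50.1% together. Of the 2475 genes higher at Dark 4 h, 726 (29.3%) were higher and 917 (37.1%) lower at Dark 8 h than at Light 8 h. Of the 2189 lower genes, 707 (32.3%) were higher and 580 (26.5%) lower. In both sets the more frequent direction was opposite to that between Dark 4 h and Dark 0 h. Among the 265 genes at least 4-fold higher at Dark 4 h, 37 were higher and 123 lower at Dark 8 h than at Light 8 h, with a median log2 difference of -1.15. Of the 4 genes described by library, Solyc12g099790 and Solyc04g007790, higher at Dark 4 h, were lower at Dark 8 h than at Light 8 h, with log2 differences of -2.76 and -3.22 (adjusted p = 1.96e-05 and 1.85e-07). Solyc08g080630, lower at Dark 4 h, was higher there, with 3.81 (adjusted p = 7.23e-05). Solyc10g081570 was lower in both comparisons, with -1.70 (adjusted p = 0.00075). In this other comparison 66.4% of the higher and 58.8% of the lower genes were called, against 46.1% of the genes not called between Dark 4 h and Dark 0 h. These shares were not tested, and between Dark 4 h and Dark 0 h the share of genes called differed with read level. Both comparisons also came from the same fit of all mRNA libraries, with a shared estimate of spread for each gene. A gene with a low estimate is called more readily in both, so the shares are not independent of the first call. The part of this in the shares was not tested.

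Uncapped RNA, read in other libraries, was itself called in the direction of the mRNA in a minority of the genes called. A missed call in uncapped RNA does not show that the assays differed for a gene. Of the 20696 genes tested in that assay, 12.8% had more of it and 13% less of it at Dark 4 h, 25.8% together. Without replicate 2 of the Dark 4 h GMUCT libraries, 1660 genes were lower, against 2694 with it. In that library 54.4% of the reads lay in genes, the lowest share of all, and 40.2% had no unique alignment. In replicates 1 and 3 of this group 13.0 and 13.8% had none. The part of this in the counts was not tested. The groups fitted alone gave 1401 higher and 1440 lower genes. Of 2440 genes higher in mRNA and tested in both assays, uncapped RNA was higher in 451 (18.5%) and lower in 346 (14.2%). Of 2135 genes lower in mRNA, it was higher in 268 (12.6%) and lower in 403 (18.9%). Among the genes higher in mRNA its median log2 change was 0.02, with quartiles of -0.44 and 0.42. Among the genes lower in mRNA it was -0.04, with quartiles of -0.48 and 0.37. Sorted by the time of highest mRNA, the genes called in mRNA formed sets that differed in uncapped RNA. Genes not called were not sorted in this way, so these differences are not shown to be particular to the genes called. Of the 608 higher genes with their maximum at Light 8 h that were tested in both assays, uncapped RNA was higher in 5 (0.822%) and lower in 197 (32.4%), with a median of -0.45. Of the 572 higher genes with their maximum at Light 0 h, it was higher in 226 (39.5%) and lower in 4 (0.699%), with a median of 0.40. The 740 genes highest at Dark 4 h lay between, with 141 higher (19.1%) and 55 lower (7.43%).

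Among the lower genes the same times gave the same directions. With the mRNA maximum at Light 8 h, uncapped RNA was lower in 82 of 174 genes (47.1%) and higher in 1 (0.575%), with a median of -0.60. With the maximum at Light 4 h it was lower in 203 of 474 (42.8%) and higher in 13 (2.74%). With the maximum at Light 0 h it was higher in 29 of 119 (24.4%) and lower in 4 (3.36%), with a median of 0.26. The genes highest in mRNA at Dark 0 h gave other shares: of 1261 tested in both, 198 (15.7%) had more uncapped RNA at Dark 4 h and 114 (9.04%) had less, with a median of 0.10. The median mRNA change of these 1261 genes was -0.98. Over all 19161 genes tested in both assays the shares were 13.5% and 13.6%. The differences between these sets of genes are given as counts and medians and were not tested.

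**Figure D4:**
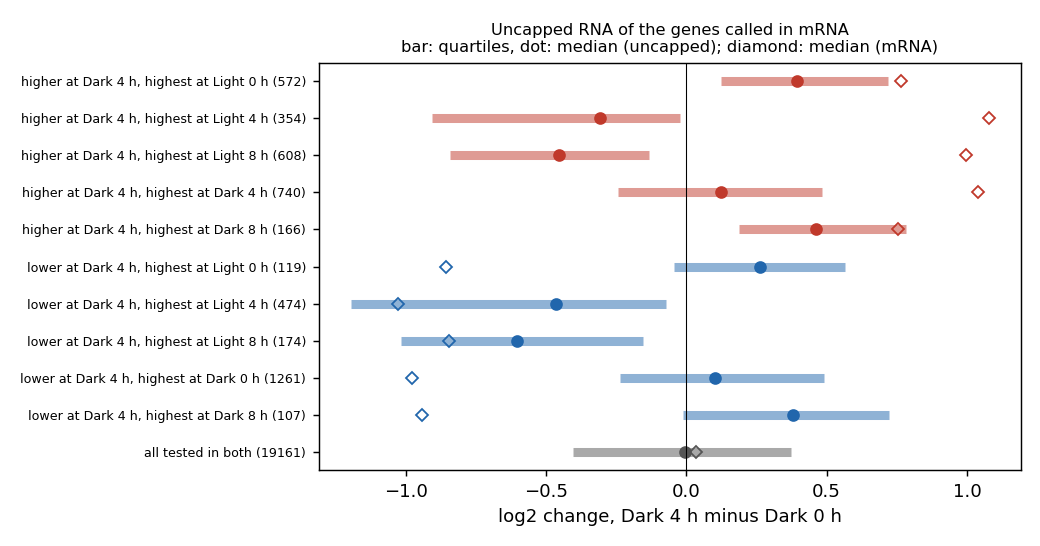
Rows are sets of genes called in mRNA, split by direction and by the time of their highest mRNA, with the number tested in both assays. On the x axis, bars and dots give the quartiles and median of the log2 change in uncapped RNA, Dark 4 h minus Dark 0 h, and diamonds the median change in mRNA. The median of uncapped RNA lies below 0 for sets highest at Light 4 h or Light 8 h. It lies above 0 for sets highest at Light 0 h or Dark 8 h, whichever way the mRNA moved.

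The assays were compared gene by gene through the interaction of assay and time. The change in uncapped RNA was above that in mRNA in 2288 of 19161 genes (11.9%) and below it in 2680 (14%), 25.9% together. The groups fitted alone gave 1470 and 1714. These differences rest on the Dark 0 h labels of both assays marking the same time. For Solyc04g007790 the difference was -3.70 ± 0.47 (log2, SE; adjusted p = 1.96e-06), as its 2 kinds of RNA moved in opposite directions. For Solyc12g099790 it was -4.31 ± 0.82 (adjusted p = 0.000287), for Solyc08g080630 10.86 ± 1.53 (adjusted p = 7.07e-06) and for Solyc10g081570 1.36 ± 0.44 (adjusted p = 0.0214). The genes were chosen for large mRNA changes in these libraries, and the difference contains that change with its sign turned. Its sign was thus largely set by the choice, which also favoured small adjusted p-values. The value of Solyc08g080630 rests on 20 reads of uncapped RNA in 6 libraries.

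Changes were also set out by neighbourhood. The identifiers carry a chromosome number and an order along it, and no coordinates were used. By chromosome from 1 to 12, the share of tested genes that were higher lay between 11.1% (chromosome 8) and 14% (chromosome 10), and the share lower between 7.9% (chromosome 11) and 12.6% (chromosome 2). The next tested gene was also higher for 15.2% of the higher genes, against 12.6% of all genes tested, and also lower for 16% of the lower genes, against 11.1%. These shares were not tested. Runs of 3 or more tested neighbours called in the same direction numbered 44 for higher and 51 for lower genes, and the longest in each direction had 6 members. The number of such runs to be had at these shares was not computed.

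The longest run of lower genes lay on chromosome 8 and began with Solyc08g080630. Its 6 genes changed by -8.04 to -1.20 on the log2 scale, with a median of -5.54. Summed over the run, mRNA was 13.5, 18.3 and 12.1 CPM at Dark 4 h, against 191, 190.2 and 315 CPM at Dark 0 h. All 15 mRNA libraries outside Dark 0 h lay between 7.99 and 23.2 CPM. At Dark 4 h most of the sum came from a single member: the last gene of the run had a mean of 12.2 CPM and the first, Solyc08g080630, 0.155 CPM. The sum thus hides the weaker members, of which 3 were higher at Dark 8 h than at Light 8 h, Solyc08g080630 by 3.81 on the log2 scale (adjusted p = 7.23e-05). Uncapped RNA of the 5 members tested in that assay summed to 41.5, 22.7 and 25.0 CPM at Dark 4 h and 35.1, 26.01 and 30.5 CPM at Dark 0 h, groups that overlapped. Its mean was highest at Light 4 h, where the libraries lay between 49.0 and 127.6 CPM. These overlapped Dark 8 h, at 66.4 to 90.2 CPM, and Light 8 h, at 38.8 to 70.4 CPM. Neighbours of this kind can be copies of each other. Reads without a unique alignment were counted in no gene, so copies may have lost reads, and these could not be traced.

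The longest run of higher genes lay on chromosome 12. Its 6 members changed by 0.55 to 2.12 on the log2 scale, and their mRNA summed to 262, 242 and 269 CPM at Dark 4 h, against 113, 122 and 126 CPM at Dark 0 h. Dark 0 h was the lowest of the 6 times for the sum, and the other times lay between 193 CPM (Light 4 h) and 318 CPM (Light 0 h). Uncapped RNA of the run summed to 231, 242 and 251 CPM at Dark 4 h, against 204, 167 and 178 CPM at Dark 0 h. The runs were picked by their changes, so no test is given for them.

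**Figure D5:**
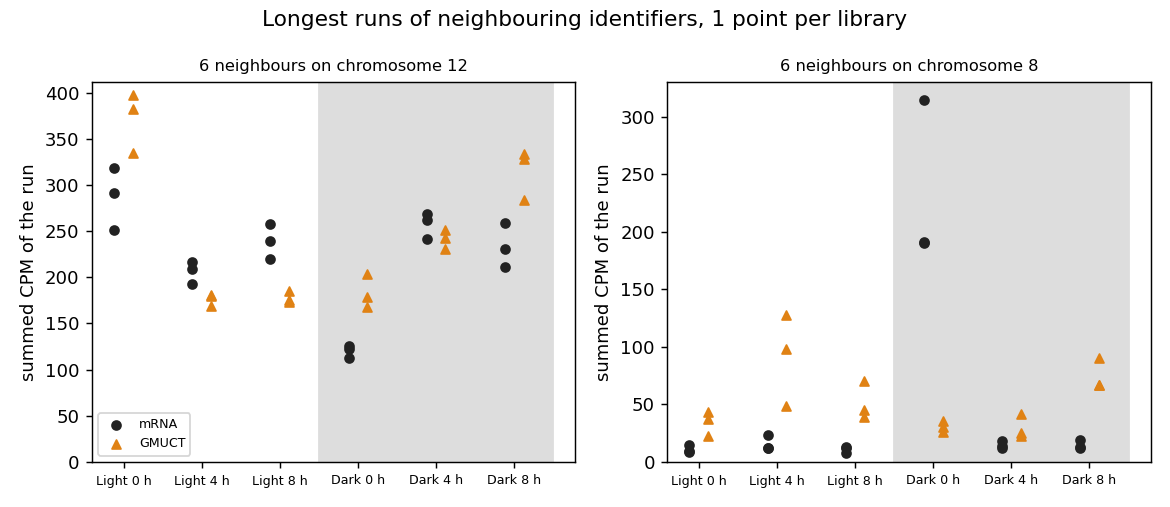
Summed CPM (y) of the 6 neighbouring genes of the longest run of higher genes, on chromosome 12 (left), and of lower genes, on chromosome 8 (right), in each library at the 6 times (x); black circles are mRNA and orange triangles GMUCT (5 of the 6 genes for chromosome 8), and grey marks the dark. The chromosome 8 run has mRNA of 190.2 to 315 CPM at Dark 0 h and at most 23.2 CPM elsewhere.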

How the data were processed

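The authors deposited a table of raw gene counts for each library, covering 34075 identifiers plus 5 counters for reads not assigned to a gene. The submitters' processing notes name cutadapt, HTSeq and STAR 2.4.2a. Settings, genome build, annotation and strand use were not given in the sources used here. Reads of genes that overlap, also in antisense, are therefore uncertain. Per the labels, mRNA libraries were paired reads of 150 nt and GMUCT libraries single reads of 50 nt. Counters entered neither library sizes nor tests; genes held 88 to 90.2% of the mRNA reads and 54.4 to 85.3% of the GMUCT reads.

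Counts were fitted with edgeR 4.0.16 in R 4.3.3 (filterByExpr, TMM scaling within an assay, glmQLFit, glmQLFTest) over all 18 libraries of an assay in 6 group means, or all 36 in the interaction. P-values were adjusted by Benjamini and Hochberg over all genes tested, with a threshold of 0.05. A log2 change has as its SE the size of the change divided by the square root of F. Log2 CPM used a prior count of 2. Depth limits precision: 1 read is 0.151 CPM, before scaling, in the shallowest library compared.

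Genes were named by a rule: called, no overlap between groups, at least 10 CPM in the higher group and over 3 reads in the lower, then the largest change in log2 and in CPM in each direction. A longer list of named genes, the gene lists and the marker lists needed gene names and could not be run. The members, lists and tests were chosen with earlier results of these data known. The mRNA test was tested on simulated data for Dark 4 h minus Dark 0 h, over 16396 genes. It found 50 of 100 genes given a log2 change of 1, and 97 of 100 given a log2 change of 2. Far fewer genes were changed there than were called in the real data, which makes the adjusted threshold stricter. These shares therefore need not hold for the real data. Alternatives were RLE scaling, other filters, DESeq2 1.42.0, a fit of the compared groups alone, a replicate block and leaving out each library. Replicates of a group differed by far more than sampling noise.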

Additional observations from a re-analysis of the deposited data

Results flagged for a closer look

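For each of the 4 genes described by library, the change between Dark 4 h and Dark 0 h differed between uncapped RNA and mRNA (edgeR, assay by time interaction). The change in uncapped RNA minus that in mRNA was -4.31 for Solyc12g099790 (log2; adjusted p = 0.000287), -3.70 for Solyc04g007790 (adjusted p = 1.96e-06), 10.9 for Solyc08g080630 (adjusted p = 7.07e-06) and 1.36 for Solyc10g081570 (adjusted p = 0.0214). These genes were chosen for large mRNA changes in the same libraries, which largely set the signs and favoured small adjusted p-values. The value of Solyc08g080630 rests on few reads of uncapped RNA. Over all 19161 genes tested in both assays, the change in uncapped RNA was above that in mRNA in 2288 and below it in 2680. All these differences rest on the Dark 0 h labels of both assays marking the same time. Groups of 3 libraries were too small for a check of single outlying libraries.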

How the results depend on the processing

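Against counts of 2475 higher and 2189 lower genes in mRNA at Dark 4 h, a fit of the compared groups alone gave 1400 higher (1374 of them shared) and 1468 lower, DESeq2 2585 and 2571, RLE scaling 2315 and 2309, and a replicate block 2334 and 2064. Without a single library the counts were 1701 to 2251 and 1735 to 2006. In uncapped RNA, the compared groups alone gave 1401 higher and 1440 lower genes, and leaving out a library 1845 to 2809 and 1660 to 2720, the lowest without replicate 2 of Dark 4 h. For the difference between the assays, the compared groups alone gave 1470 above and 1714 below, and leaving out a library 1830 to 2510 and 2102 to 2884. For Dark 8 h against Light 8 h, all alternatives lay between 4380 and 5063 higher and between 4450 and 5164 lower genes. The cause of these shifts was not tested. The 4 named genes kept their direction under all 12 alternatives, and Solyc10g081570 missed the threshold in the compared groups alone (adjusted p = 0.0545). The replicate numbers are no pairing in the data: same-numbered libraries of Dark 4 h and Dark 0 h deviated with r of -0.11, -0.05 and -0.01, no library matched its own number best, and the replicate block changed no count by over 1.5 times. Simulated 2-fold changes were often missed, but far fewer genes were changed there than were called in the data, which makes the adjusted threshold stricter. Depth was not varied in the simulation.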

Other observations

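A few genes were near silence in one of the groups. Of the genes higher at Dark 4 h, 31 had at most 3 reads over the 3 Dark 0 h libraries. Their means at Dark 4 h lay between 0.18 and 1.95 CPM, so they were weak at both times. Of the lower genes, 34 had at most 3 reads over the Dark 4 h libraries, with means of 0.243 to 8.39 CPM at Dark 0 h.

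Identifiers come in 2 forms. Of the 3514 tested genes whose identifier carries the prefix gene:, 8.68% were higher and 12.4% lower at Dark 4 h. Of the 16197 genes without it, 13.4% were higher and 10.8% lower. Genes with the prefix had a median of 4.58 CPM over the day, and those without it 14.9 CPM. The part of this level in the shares was not tested.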
